A study of Mus musculus with 4 samples.

Results

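Oviduct mesothelium, the flat cell layer that covers the outer surface of the oviduct, was taken here as every oviduct barcode that carried mesothelial marker RNA and no Epcam or Pecam1 RNA. A barcode had to show at least 500 genes and at most 15% of its UMIs (unique molecular identifiers, 1 per captured RNA molecule) from mitochondrial genes. At least 3 of the 6 markers Upk3b, Upk1b, Msln, Lrrn4, Krt19 and Lgals7 had to be detected, among them Upk3b or Lrrn4, and the 6 together had to make up at least 0.05% of the barcode's UMIs. Epcam, an epithelial adhesion molecule, and Pecam1, an endothelial one, had to be at 0 UMIs. The rule was met by 677 of the 12760 oviduct barcodes that passed the gene and mitochondrial filters, 320 of 6920 in oviduct replicate 1 and 357 of 5840 in oviduct replicate 2. In the uterus the same rule found 105 of 8566 barcodes.

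The study profiled wild-type CD1 mice at postnatal day 3 by droplet-based single-cell RNA sequencing, with 2 oviduct and 2 uterus libraries. No mouse carried a genetic change or was treated. Each library pooled tissue of 3 or 4 neonates, and both organs came from the same neonates, but the labels do not say which libraries share a pool or whether the pools were dissociated separately. The libraries hold between 61117726 and 114419939 UMIs in 5716 to 7808 called barcodes. The 2 filters removed 11.4% and 13.8% of the called oviduct barcodes and 29.0% and 28.7% of the uterine ones. Any pair of libraries shared 8 to 15 barcode sequences. P-values below measure the spread between these libraries, which may be partly technical.

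Mesothelium is a simple epithelium that lines the body cavity and the organs in it. It keeps keratins beside mesenchymal genes, carries an apical coat of uroplakins, mesothelin and mucin-like glycoproteins, and depends on the transcription factor WT1 during development. It derives from the coelomic epithelium, the tissue that also folds inward in the embryo to form the Müllerian duct, from which the oviduct and uterus arise. Along the Müllerian duct, Hox genes are expressed in ordered domains, with Hoxa9 at the level of the oviduct and Hoxa10 and Hoxa11 at the level of the uterus.

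The rule selected on 6 markers, so their levels are a description. Upk3b, a uroplakin of the mesothelial surface, stood at 794 and 783 CPM (UMIs per 1000000 UMIs of the members' sum) in oviduct replicates 1 and 2, and Krt19, a keratin, at 1504 and 1396 CPM. Lgals7, a galectin, stood at 561 and 622 CPM, Msln (mesothelin) at 236 and 231 CPM, Lrrn4, a leucine-rich repeat membrane protein, at 221 and 216 CPM, and Upk1b, a uroplakin partner, at 170 and 189 CPM. All 6 were detected in 179 of the 320 and 195 of the 357 members. Members with exactly 3 markers, 35 and 41 barcodes, had medians of 4618 and 5890 UMIs against 14527 and 12842 for all members. Barcodes just outside the rule, with 2 markers and every other criterion met, numbered 42 and 25 with medians of 3001.5 and 2406 UMIs, and their Wt1 levels of 298 and 462 CPM stood beside 349 and 353 CPM in the members with 3 markers.

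Of 20 mesothelial genes outside the rule, 19 and 20 were detected, with summed levels of 4599 and 4650 CPM. Oviduct stroma, defined by Pdgfra and fibrillar collagen UMIs, showed 461 and 446 CPM for the same 20 genes. Stroma barcodes could also hold no UMI of Upk3b, Lrrn4, Upk1b, Epcam, Pecam1, Ptprc, Rgs5, Actg2 or Myh11. Epithelium barcodes could hold none of Upk3b, Lrrn4 or Pecam1. Both bars remove barcodes with mesothelial RNA, so contrasts with these classes were partly set in advance. Wt1 stood at 426 and 486 CPM in the members, and Podxl, a sialomucin of the apical coat, at 480 and 550 CPM. Muc16, a large membrane mucin, stood at 138 and 173 CPM, against 0.72 and 1.09 CPM in stroma and 0.37 and 1.25 CPM in Epcam-positive oviduct epithelium. All other oviduct barcodes together, to which no such bar applied, held 19.8 and 20.9 CPM of Muc16. Bnc1, a zinc-finger transcription factor of keratinised and mesothelial cells, stood at 82.6 and 93.3 CPM against 1.14 and 1.48 CPM in stroma. Rspo1, a WNT-enhancing ligand, and Efemp1, an extracellular matrix glycoprotein, were at 354 and 297 CPM and at 258 and 250 CPM. Some genes of the list had few UMIs in the members or stood higher in another class. Tbx18, a transcription factor of embryonic mesothelia, had 0 and 3 UMIs among all members, and Gata4 24 and 11 UMIs, while its relative Gata6 stood at 346 and 376 CPM. Tcf21, a transcription factor of mesothelium-derived mesenchyme, stood at 32.0 and 17.5 CPM in the members and at 66.1 and 63.3 CPM in stroma. Complement C3, at 31.3 and 55.2 CPM in the members, was at 211 and 259 CPM in epithelium, where the keratins Krt8 and Krt18 were also higher.

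**Figure D1:**
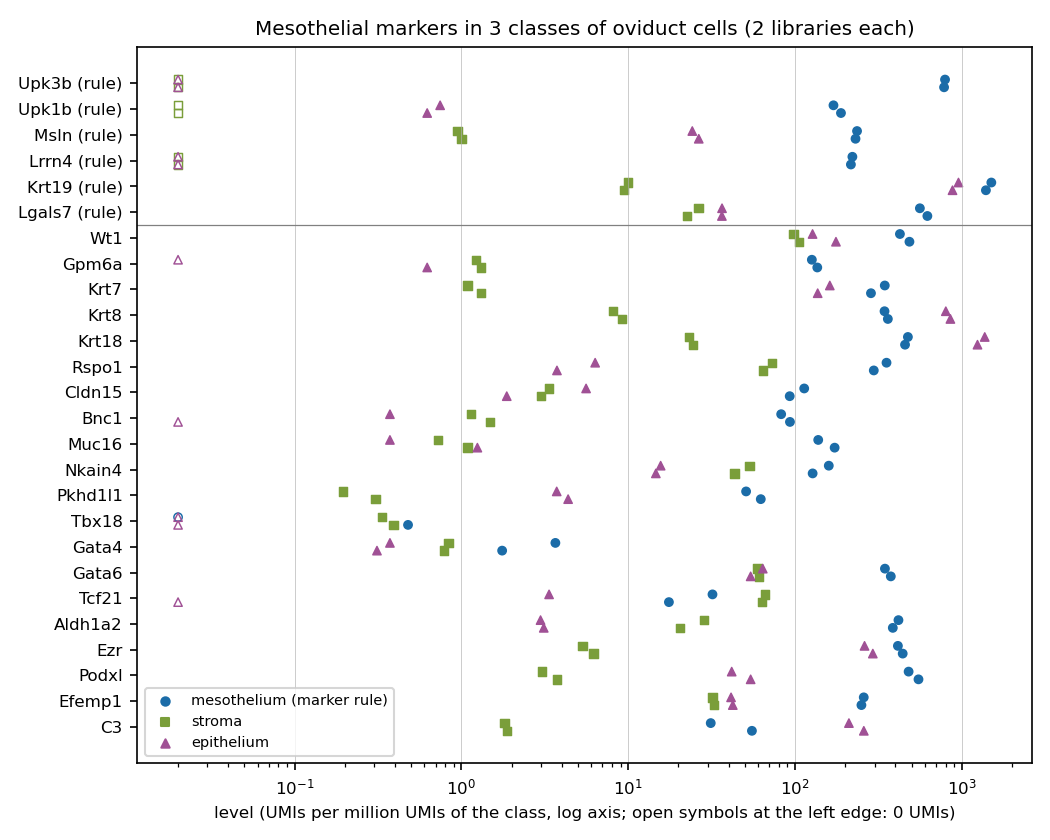
Levels of the 6 rule markers (above the line) and 20 other mesothelial genes (below it) in oviduct mesothelium, stroma and epithelium, as CPM of each class on a log axis; each symbol is 1 of 2 libraries. Muc16, Bnc1, Gpm6a and Pkhd1l1 stand higher in mesothelium than in both other classes. Krt8, Krt18 and C3 are highest in epithelium and Tcf21 in stroma. Barcodes with Upk3b or Lrrn4 UMIs were barred from stroma and epithelium.

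Markers of other cell types were low for some lists and not for others. The 12 epithelial genes summed to 28.4 and 34.1 CPM in the members against 2750 and 2929 CPM in oviduct epithelium, with Epcam (barred by the rule) and Esrp1 at 0. The 7 myeloid genes summed to 21.04 and 20.4 CPM and the 8 ovarian genes to 21.8 and 18.2 CPM. Blood endothelial genes summed to 72.7 and 76.4 CPM, of which Kdr, the receptor VEGFR2, made up 68.0 and 72.6 CPM, with Pecam1 barred by the rule. The 6 smooth muscle genes summed to 812 and 807 CPM, against 1288 and 1373 CPM in stroma, with Tagln (transgelin) at 534 and 438 CPM and the myosin Myh11 at 1.98 and 8.45 CPM. The 6 pericyte genes summed to 123 and 124 CPM, above the 54.2 and 62.3 CPM of stroma. Barcodes with Rgs5, Actg2 or Myh11 UMIs were barred from stroma, which lowers its pericyte and smooth muscle sums. All other oviduct barcodes together held 143 and 149 CPM of the pericyte list and 2528 and 2628 CPM of the smooth muscle list. Kcnj8, a potassium channel, made up 95.8 and 88.8 CPM of the members' pericyte sum, and Rgs5, a defining pericyte gene, 3.05 and 4.31 CPM. The 8 stromal genes summed to 7469 and 6714 CPM, against 9036 and 9510 CPM in stroma, and Pdgfra was detected in 64 of 320 (20%) and 64 of 357 (17.9%) members. The 5 erythroid genes summed to 180 and 114 CPM. If all haemoglobin UMIs of the members were free RNA from lysed red cells, free RNA would make up at most 2.73% and 2.86% of the oviduct members' UMIs and 0.27% and 0.36% of the uterine members' UMIs. By the rate at which Scrublet scores were cut, 19 and 18 members were probable doublets.

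The bar on Epcam and Pecam1 shaped the membership by depth. Before it, 590 and 638 oviduct barcodes met the marker criteria, and it removed 270 and 281 of them, 235 and 240 for Epcam alone. The removed barcodes were deeper, with medians of 46629.5 and 24579 UMIs. Among marker-positive barcodes under 5000 UMIs, 94.1% and 86.8% were members, and from 40000 UMIs upward 18.2% and 22.8% were. Barcodes removed for 1 Epcam UMI, 83 and 91 in number, had Muc16 at 116 and 174 CPM, Wt1 at 499 and 517 CPM and Cldn7, an epithelial claudin, at 0.69 and 0.95 CPM, values close to those of the members. Barcodes removed for 5 or more Epcam UMIs, 75 in each library, had Cldn7 at 244 and 341 CPM. With up to 4 UMIs of Epcam and of Pecam1 allowed, an alternative chosen after these values were seen, the members numbered 503 and 555.

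**Figure D2:**
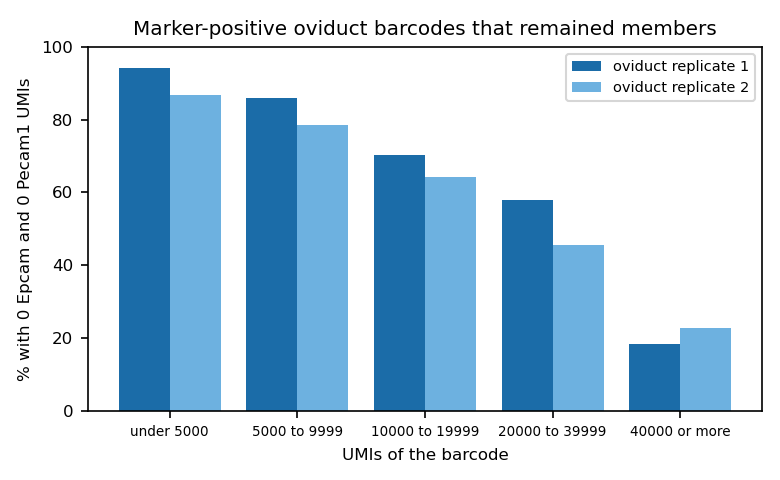
Share of oviduct barcodes meeting the marker criteria that had 0 Epcam and 0 Pecam1 UMIs and so became members, by the barcode's UMI count, for the 2 oviduct libraries (bars). The share falls from 94.1% and 86.8% under 5000 UMIs to 18.2% and 22.8% from 40000 UMIs upward.

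Outside the rule genes, the genes that stood out most from all other oviduct barcodes included receptors, a peptidase and secreted factors. Of 2928 genes at 50 CPM or more in both libraries, 36 stood at least 5 times as high in members as in the rest. At least 10 times as high were 0. These counts include rule markers, such as Upk3b and Lrrn4. The rest includes the marker-positive barcodes barred for Epcam or Pecam1, which also carry mesothelial RNA. Pkhd1l1, a fibrocystin-like membrane protein, had the highest ratio, 8.07 in the lower library, and stood at 50.9 and 62.4 CPM against 0.19 and 0.31 CPM in stroma. Il18, an interleukin-1 family cytokine, stood at 142 and 126 CPM against 18.2 and 16.6 CPM in the rest. Dpp4, a cell-surface peptidase, stood at 189 and 194 CPM against 28.5 and 27.5 CPM, and Lrp2 (megalin), an endocytic receptor, at 50.9 and 57.7 CPM against 7.80 and 7.44 CPM. Crip1, a LIM-domain protein, was the most abundant of the 25 leading genes, at 4199 and 3333 CPM against 659 and 469 CPM. Igfbp6, a binding protein of insulin-like growth factors, stood at 1098 and 949 CPM, and Gas6, a ligand of TAM receptors, at 662 and 612 CPM. Aldh1a2, the enzyme that makes retinoic acid, stood at 417 and 386 CPM against 28.6 and 20.4 CPM in stroma. Complement C2, with 106 and 84.5 CPM, shares exon sequence with an overlapping gene model, so its counts are uncertain.

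Mesothelial barcodes made up 4.62% and 6.11% of the kept oviduct barcodes (95% exact binomial intervals 4.14 to 5.15% and 5.51 to 6.76%, counting error only) and 1.40% and 1.06% of the kept uterine ones (1.07 to 1.82% and 0.79 to 1.41%). The means were 5.37% ± 1.05 and 1.23% ± 0.24 (SD, n = 2 libraries each), and the ranges did not overlap. A 2-sided exact permutation test over libraries gave p = 0.333, the smallest value that 2 against 2 libraries allow. The filters removed a larger share of the uterine barcodes. Without the mitochondrial filter the means were 5.43% and 1.11%, and the difference was 4.33 percentage points in place of 4.13.

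Between the organs the mesothelium could be tested, because the rule was applied to both alike. UMIs were summed over the members of each library and compared with edgeR's quasi-likelihood test, oviduct minus uterus. The adjusted p-values are from the Benjamini-Hochberg method over 11940 genes, and a gene was called under 0.05. Called genes numbered 648 (5.43% of those tested), 380 toward the oviduct (3.18%) and 268 toward the uterus (2.24%). Both oviduct libraries lay on 1 side of both uterine libraries for 47.8% of all genes tested, and counts of genes without overlap are read against that share. With DESeq2 329 genes were called, all of them among the 648, and without any filter on low counts 294. With each cell thinned to 3000 UMIs 157 were called. The uterine sums rest on 57 and 48 barcodes.

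Of the 20 mesothelial genes outside the rule, 6 were called between the organs (5.43% over all genes), 3 in each direction, with a median log2 fold change of 0.05 against 0.00 over all genes. Most of the defining genes showed small differences that did not pass. Wt1 had a log2 fold change of 0.09 ± 0.13 (SE), Podxl 0.03 ± 0.13, Krt7 0.04 ± 0.15, Krt8 0.08 ± 0.13 and Bnc1 0.11 ± 0.15, with adjusted p-values from 0.79 to 0.94 in edgeR. Muc16 stood at 138 and 173 CPM in the oviduct and at 199 and 220 CPM in the uterus, with an adjusted p of 0.15 in edgeR, and passed at 0.0088 without oviduct replicate 2. Krt18 was higher in the oviduct, at 475 and 457 CPM against 280 and 294 CPM, by 0.74 ± 0.13 (edgeR adjusted p = 0.0023). Cldn15 and Aldh1a2 were also higher in the oviduct. Toward the uterus, the listed genes Tcf21, C3 and Tbx18 passed. Tbx18 met the filter on low counts through the uterine libraries alone, so its part in the count is a description. Tbx18 rested on 3 oviduct and 15 uterine UMIs, a ratio of 28.5 with a 95% counting interval of 8.07 to 154, and lost the call without either oviduct library (edgeR adjusted p = 0.25 and 0.13, log2 fold changes -3.63 and -7.24).

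The genes described next were chosen as the 12 called genes with the largest fold changes in each direction, among those with a mean of at least 20 CPM and no overlap between the organs, so neither the call nor the lack of overlap is a finding about them. Enpp2 (autotaxin), which makes lysophosphatidic acid, stood at 88.6 and 71.9 CPM in the oviduct members and at 4.99 and 3.82 CPM in the uterine members. Its log2 fold change was 4.202 ± 0.297 (edgeR adjusted p = 7.6e-07). Oviduct stroma expressed more Enpp2 still, 479 and 443 CPM, against 30.0 and 27.55 CPM in uterine stroma. Free RNA could account for at most 6.37% of the members' Enpp2 UMIs. Nppc, the precursor of C-type natriuretic peptide, stood at 94.1 and 132 CPM against 22.5 and 10.5 CPM. Ptgds, a prostaglandin D2 synthase, stood at 47.1 and 37.3 CPM against 7.49 and 4.77 CPM, and both stromas held under 1 CPM. Ins2, an insulin gene, stood at 57.8 and 46.4 CPM against 9.16 and 4.77 CPM. Aqp5, a water channel, stood at 32.8 and 48.0 CPM against 5.83 and 0.95 CPM. Stroma also held more Enpp2, Ins2, Aqp5 and Nppc in the oviduct, by 3.96, 4.17, 2.67 and 0.69 on the log2 scale. Stromal levels of 2 of them were near the floor: Ins2 at 1.56 and 1.74 against 0.087 and 0.081 CPM, Aqp5 at 2.09 and 3.31 against 0.26 and 0.53 CPM. Free RNA could make up at most 10.7% and 46.2% of the oviduct stromal sums. No difference in organ change between mesothelium and stroma was called for Enpp2, Ins2 and Aqp5 (edgeR adjusted p = 0.71, 0.34 and 0.43). For Ins2 and Aqp5 that comparison rests on these low stromal levels, with values of -1.10 ± 0.70 and 0.92 ± 0.68. Without uterus replicate 1 the log2 fold change of Aqp5 rose from 3.53 to 5.39 and that of Nppc from 2.78 to 3.46. Without uterus replicate 2 Aqp5 was at 2.83.

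The other 7 genes on the oviduct side were chosen alike. Tmem158, a membrane protein, stood at 83.1 and 102 CPM against 9.99 and 13.4 CPM, a log2 fold change of 3.03 ± 0.24 (edgeR adjusted p = 1.8e-06). Nrgn (neurogranin), a calmodulin-binding protein best known from neurons, was the most abundant of them, at 529 and 418 CPM against 130 and 102 CPM. Stroma held 28.5 to 35.1 CPM of Nrgn in all 4 libraries. Gstm1, a glutathione transferase, stood at 136 and 108 CPM against 20.8 and 30.5 CPM, Cmbl, a hydrolase, at 55.0 and 55.5 CPM against 9.16 and 17.2 CPM, and Bace2, a membrane protease, at 47.9 and 46.9 CPM against 14.98 and 8.59 CPM. The keratin Krt15 stood at 86.3 and 102 CPM against 28.3 and 13.4 CPM, and its log2 fold change rose from 2.18 to 2.84 without uterus replicate 1. Ltbp1, which tethers latent TGF-beta, stood at 38.9 and 33.7 CPM against 8.32 and 7.63 CPM. Stroma too held more Krt15, Ltbp1 and Gstm1 in the oviduct, by 1.92, 2.44 and 1.00 on the log2 scale. Stromal Krt15 was near the floor, at 1.00 and 1.35 CPM in the oviduct and 0.087 and 0.48 CPM in the uterus. The stromal organ differences of Tmem158, Cmbl, Nrgn and Bace2 were not called. For Krt15 and Ltbp1 no difference between mesothelium and stroma in the organ change was called (edgeR adjusted p = 0.79 and 0.85).

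The stromal marker list moved with the organ as well: its 8 genes summed to 7469 and 6714 CPM in oviduct members and 11505 and 9088 CPM in uterine members, with Col1a1 and Col1a2 called toward the uterus and Col6a3 toward the oviduct. Without uterus replicate 1 none of these 3 calls held (edgeR adjusted p = 0.44, 0.19 and 0.11), and Col6a3 also missed without uterus replicate 2 (0.069). In stroma the 8 stromal genes lay the other way, at 9036 and 9510 CPM in the oviduct and 4002 and 3705 CPM in the uterus. The 6 smooth muscle genes summed to 812 and 807 CPM in oviduct members against 1428 and 1309 CPM in uterine members. Of these Tagln was called toward the uterus, with a log2 fold change of -1.05 ± 0.13 (edgeR adjusted p = 1.5e-04), and Actg2 was at 0 in uterus replicate 1. The 7 blood endothelial genes summed to 72.7 and 76.4 CPM against 196 and 200 CPM, and Kdr alone made up 195 and 198 CPM of the uterine sums, with Pecam1 barred and Emcn at 0. The 6 pericyte genes lay the other way, at 123 and 124 CPM against 76.6 and 99.3 CPM, and the call of Kcnj8 toward the oviduct was lost without uterus replicate 1 (edgeR adjusted p = 0.41). The part of these lists in the differences below was not tested. Without members carrying a Pdgfra UMI 574 genes were called, 505 of them among the 648. The calls of Sdc4, Cdh3, Wnt4, Rarb, Rdh10, Hoxc9, Hoxc4, Nr4a1, Atf3, Hspa1b, Cenpf and Map2 were then lost (edgeR adjusted p = 0.053 to 0.20). Of their log2 fold changes, Wnt4 stood at 0.61 in place of 0.56 and Rarb at 1.13 in place of 1.10, and the others were smaller by various amounts, such as Sdc4 at 0.55 in place of 0.64, Cenpf at 0.54 in place of 0.63 and Map2 at 0.91 in place of 1.00.

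On the uterine side, 9 of the 12 genes chosen by the same limits were no Hox genes. Car3, a carbonic anhydrase, had the largest log2 fold change of the 9, -3.19, at 47.7 CPM on average in the uterus and 5.10 CPM in the oviduct. Alcam, an adhesion molecule of the immunoglobulin family, stood at 381 and 371 CPM in uterine members and at 54.6 and 64.1 CPM in oviduct members. This was a log2 fold change of -2.63 ± 0.14 (edgeR adjusted p = 6.8e-08). Rspo3, a WNT-enhancing R-spondin, stood at 399 and 441 CPM against 120 and 81.7 CPM, a change of -2.02 ± 0.17. Tcf21 stood at 173 and 175 CPM against 32.0 and 17.5 CPM. Complement C3 stood at 226 and 168 CPM against 31.3 and 55.2 CPM. Sema3d, a secreted semaphorin, stood at 181 and 149 CPM against 30.6 and 26.8 CPM, and Ltbp2, a matrix protein of microfibrils, at 89.1 and 73.5 CPM against 12.8 and 8.77 CPM. The chromatin protein Hmga2 and the transcriptional cofactor Lbh averaged 61.3 and 39.4 CPM in the uterus and 13.1 and 8.39 CPM in the oviduct. Without oviduct replicate 1 the log2 fold change of Car3 moved from -3.19 to -3.94.

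**Figure D3:**
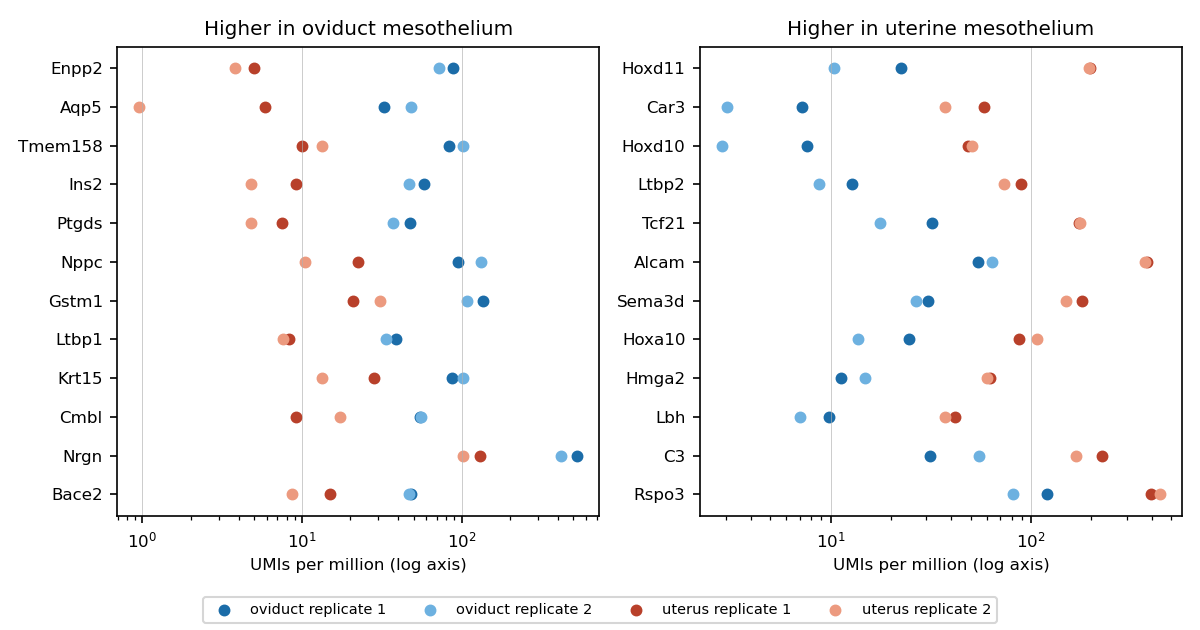
Levels of the 12 called genes of at least 20 CPM on average with the largest fold changes in each direction, as CPM of the mesothelial sum on a log axis; each point is 1 library (blue: oviduct, red: uterus). For every gene shown the 2 oviduct points lie apart from the 2 uterine points, as the choice of these genes required.

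Hox genes specify position along the body axis. Of 39 listed, 25 passed the filter on low counts in mesothelium and 11 were called (5.43% over all genes). Of these, 3 lay toward the oviduct and 8 toward the uterus. The median log2 fold change of the 25 was -0.88 against 0.00 over all genes. Hoxa11 and Hoxb9 passed that filter through the uterine libraries alone, so the count of calls is a description. The largest differences toward the uterus were in the posterior genes. Hoxa11 was almost absent from oviduct members, with 6 and 4 UMIs (0.91 and 0.64 CPM), against 30.8 and 30.5 CPM in uterine members. Hoxd11 stood at 22.6 and 10.4 CPM against 198 and 196 CPM, Hoxd10 at 7.62 and 2.87 CPM against 48.3 and 50.6 CPM, and Hoxa10 at 24.7 and 13.7 CPM against 87.4 and 107 CPM. Hoxd9 was higher in the uterus as well, at 46.6 and 48.7 CPM against 18.5 and 11.01 CPM. Oviduct replicate 1 showed more Hoxd11, Hoxd10, Hoxa10 and Hoxd9 than replicate 2, and without it the log2 fold change of Hoxd11 moved from -3.53 to -4.21 and that of Hoxd10 from -3.18 to -4.05. Hoxb9, at 0.91 and 2.23 CPM against 5.83 and 17.2 CPM, lost its call without oviduct replicate 1 (edgeR adjusted p = 0.10) and without uterus replicate 2 (0.24, with a log2 fold change of -1.83). It was at -3.51 without oviduct replicate 2 and at -3.41 without uterus replicate 1. The smaller differences of Hoxb3 and Hoxb7 lost their calls without uterus replicate 1 (0.18 and 0.46) or either oviduct library (0.18 to 0.31). Hoxd10 and Hoxd11 share exon sequence with a further gene model, and Hoxa11 has an antisense partner, so their counts are less certain.

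Genes of the Hoxc cluster were expressed in mesothelium of both organs. Hoxc8 stood at 167 and 155 CPM in oviduct members and still at 89.9 and 74.4 CPM in uterine members. This was a log2 fold change of 1.00 ± 0.15 (edgeR adjusted p = 5.7e-04). With each cell thinned to 3000 UMIs it was 0.63 ± 0.27 and not called (edgeR adjusted p = 0.32). In stroma of the same libraries Hoxc8 fell from 181 and 185 CPM in the oviduct to 4.85 and 3.84 CPM in the uterus, which is 5.36 ± 0.12 on the log2 scale. The organ difference of Hoxc8 was smaller in mesothelium than in stroma, with a class difference of -4.28 ± 0.17 on the log2 scale (edgeR adjusted p = 2.5e-19 over 14979 genes). Hoxc6 behaved alike, with log2 fold changes of 0.36 ± 0.16 in mesothelium, not called, and 4.01 ± 0.11 in stroma. Hoxc9 and Hoxc4 were called in mesothelium at 0.82 ± 0.20 and 0.79 ± 0.21, against 3.70 and 3.66 in stroma. With DESeq2 they were not called in mesothelium (adjusted p = 0.16 and 0.36). Their mesothelial calls were lost without uterus replicate 2 (edgeR adjusted p = 0.093 and 0.13), and that of Hoxc4 also without uterus replicate 1 (0.072). Both calls were also lost without members carrying a Pdgfra UMI (0.11 and 0.063), with log2 fold changes of 0.64 for Hoxc9 and 0.77 for Hoxc4. This was not limited to the Hoxc cluster. Hoxa7 stood at 33.5 and 26.6 CPM in oviduct and 16.6 and 17.2 CPM in uterine members, with log2 fold changes of 0.87 ± 0.25 in mesothelium, not called, and 5.04 ± 0.12 in stroma, a class difference of -4.11 ± 0.35 (edgeR adjusted p = 3.7e-11). Hoxa9 and Hoxd8 were also expressed in both organs, at 45.7 and 28.7 CPM against 86.6 and 45.8 CPM and at 18.9 and 22.3 CPM against 29.96 and 32.4 CPM.

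**Figure D4:**
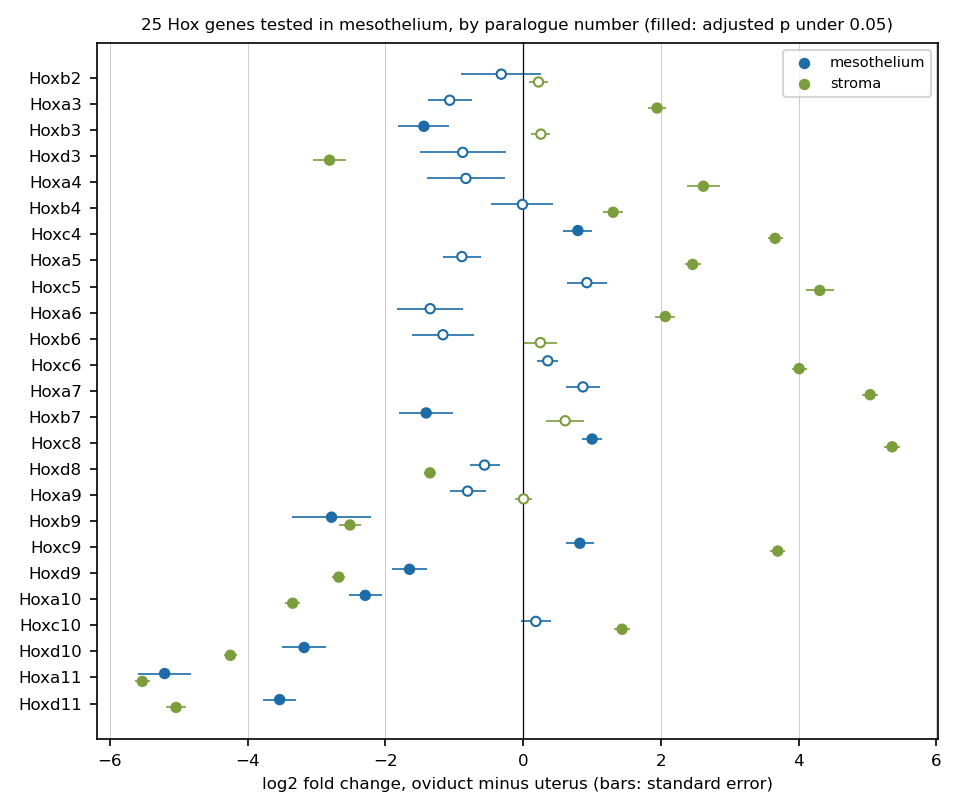
Log2 fold changes, oviduct minus uterus, of the 25 Hox genes tested in mesothelium (blue) and of the same genes in stroma (green), ordered by paralogue number; bars are standard errors and filled points passed an adjusted p of 0.05. Hoxa10, Hoxd10, Hoxa11 and Hoxd11 lie on the uterine side in both classes, whereas Hoxc4 to Hoxc9 lie at 0.36 to 1.00 in mesothelium and at 3.66 to 5.36 in stroma.

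Metallothioneins, small cysteine-rich proteins that bind zinc and copper, were higher in the oviduct. The list has 4 genes, 3 passed the filter on low counts, and all 3 were called toward the oviduct (3.18% over all genes). Mt3 passed that filter through the oviduct libraries alone, so this count is a description. Mt3, a form best known from brain, had 173 and 166 UMIs in oviduct members (26.4 and 26.5 CPM) and 0 UMIs in both uterine libraries. Taking 3 UMIs over the 2 uterine sums as the limit that a count of 0 allows, Mt3 in the oviduct was at least 19.8-fold higher. Stroma held 0.32 CPM or less in each library, and oviduct epithelium 10.4 and 0.31 CPM. Mt2 stood at 120 and 159 CPM against 41.6 and 53.4 CPM, and Mt1 at 206 and 261 CPM against 103 and 54.4 CPM, with log2 fold changes of 1.59 ± 0.19 and 1.59 ± 0.21 (edgeR adjusted p = 6.7e-05 and 2.0e-04). Mt1 and Mt2 were also higher in oviduct than in uterine stroma, by 2.12 ± 0.14 and 0.88 ± 0.20 on the log2 scale. Oviduct epithelium held 616 and 577 CPM of Mt1 and 174 and 191 CPM of Mt2, above the members. For Mt2 an antisense gene model overlaps an exon. The 3 genes lie in 1 cluster on chromosome 8, and the bases upstream of their RefSeq starts are shown because the genes moved together.

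The 250 bases upstream of each RefSeq start, from the GRCm38.p6 promoter table, were searched on both strands for the core of the metal response element, the site of the zinc-sensing factor MTF1, written TGCACNC or TGCGCNC. Capitals mark matches, 5′ to 3′ on the plus strand, at chr8:94178839-94179088 for Mt1, chr8:94172368-94172617 for Mt2 and chr8:94152357-94152606 for Mt3.
Mt1: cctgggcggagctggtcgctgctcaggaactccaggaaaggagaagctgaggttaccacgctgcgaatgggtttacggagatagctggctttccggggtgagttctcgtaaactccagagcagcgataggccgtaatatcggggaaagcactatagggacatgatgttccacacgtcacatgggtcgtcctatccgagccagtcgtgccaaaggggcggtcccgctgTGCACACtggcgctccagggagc
Mt2: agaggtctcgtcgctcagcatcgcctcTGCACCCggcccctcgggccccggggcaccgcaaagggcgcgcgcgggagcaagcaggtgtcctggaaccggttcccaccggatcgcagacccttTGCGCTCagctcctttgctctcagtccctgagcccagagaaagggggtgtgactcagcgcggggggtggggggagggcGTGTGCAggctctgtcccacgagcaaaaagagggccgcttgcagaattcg
Mt3: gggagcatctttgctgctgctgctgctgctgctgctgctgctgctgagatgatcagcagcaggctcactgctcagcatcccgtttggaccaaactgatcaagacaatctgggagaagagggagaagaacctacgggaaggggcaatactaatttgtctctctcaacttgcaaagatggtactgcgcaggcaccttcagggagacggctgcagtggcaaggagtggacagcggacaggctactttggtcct
The Mt1 window held 1 match, which ends close to the RefSeq start, and the Mt2 window 3, of which 1 lies on the minus strand. In a second gene annotation Mt1 starts at 94179082, inside its window, and Mt2 at 94172664, past the end of its window. The windows thus depend on the start used. Bases past their ends were not searched, so these counts do not describe whole promoters. None was found in the Mt3 window, which says only that these letters are not in it. Among 32851 promoter windows of the same length, 21.4% held at least 1 match and 5.17% at least 2. A match is a description of sequence and not a measured site.

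Pax8, a transcription factor of Müllerian epithelium, had 88 and 73 UMIs (13.4 and 11.6 CPM) against 0 in both uterine libraries. It was at least 9.41-fold higher, by the same limit of 3 UMIs. Pax8 too passed the filter on low counts through the oviduct libraries alone. Oviduct epithelium held 188 and 216 CPM of Pax8. The epithelial list of 12 genes summed to 28.4 and 34.1 CPM in oviduct members and 9.16 and 7.64 CPM in uterine members, Pax8 included. Epcam and Esrp1 were at 0 in all 4 sums. The part of epithelial RNA in the result was not tested. At full depth, Mt3 was detected in 37 of 320 and 53 of 357 members, Pax8 in 50 and 42, and both together in 3 and 4.

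Most retinoid genes that were called lay toward the oviduct. Retinoic acid is made from retinol by a dehydrogenase step (Rdh10) and an oxidation step (Aldh1a family) and acts through nuclear receptors such as Rarb. Of 14 listed genes that passed the filter on low counts, 7 passed toward the oviduct and 1 toward the uterus (3.18% and 2.24% over all genes), with a median log2 fold change of 0.58 against 0.00 over all genes. Rbp4, a carrier of retinol, stood at 381 and 375 CPM against 210 and 213 CPM. Stra6, a membrane channel for retinol, stood at 45.0 and 49.6 CPM against 25.8 and 13.4 CPM. Aldh1a2 was higher by 0.48 ± 0.13, and Rarb, at 20.7 and 24.2 CPM against 8.32 and 13.4 CPM, by 1.10 ± 0.29. Rdh10 was the 1 gene higher in the uterus, at 104 and 103 CPM against 60.2 and 69.4 CPM. With DESeq2 Aldh1a1, Rarb, Aldh1a2 and Rdh10 were not called (adjusted p = 0.42, 0.37, 0.070 and 0.11). Their log2 fold changes there were 1.36, 1.10, 0.48 and -0.64. With each cell thinned to 3000 UMIs, Stra6, Rarb, Aldh1a2 and Rdh10 were not called (edgeR adjusted p = 0.47, 0.54, 0.57 and 0.55). Some calls were also lost when 1 library was left out. Without uterus replicate 1 those of Aldh1a2, Rarb, Rdh10, Aldh1a1 and Dhrs3 were lost, with log2 fold changes of 0.48, 0.78, -0.64, 1.15 and 0.84. The call of Aldh1a2 was also lost without oviduct replicate 1 (log2 fold change 0.42) and without uterus replicate 2 (0.49). That of Aldh1a1 was lost without oviduct replicate 2 (1.28). Without members carrying a Pdgfra UMI the log2 fold change of Rdh10 went from -0.64 to -0.41 (edgeR adjusted p = 0.20). Rarb then missed the threshold (edgeR adjusted p = 0.067) at 1.13 in place of 1.10.

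Secreted signals and their receptors changed in both directions. In the WNT list, 7 of 29 tested genes were called (5.43% over all genes), 2 toward the oviduct and 5 toward the uterus. Beside Rspo3, the uterine side held Wnt5a, a non-canonical ligand, at 201 and 216 CPM against 134 and 137 CPM. It also held the receptor gene Fzd1, the inhibitor Dkk2 and the WNT deacylase Notum. With DESeq2 Dkk2, Wnt4 and Wnt16 were not called (adjusted p = 0.20, 0.26 and 0.11). On the oviduct side, Wnt16 rested on 59 and 75 UMIs against 0 and 3, a ratio of 7.83 with a 95% counting interval of 2.62 to 38.5. Its call was lost without oviduct replicate 2 (edgeR adjusted p = 0.055) and without uterus replicate 1 (0.088, log2 fold change 1.89 in place of 2.97), and its value was 8.62 without uterus replicate 2. Without probable doublets Wnt16 was at 1.56 (adjusted p = 0.44), and free RNA could account for up to 28.8% of its UMIs. Wnt4 lost its call without oviduct replicate 1 or either uterine library (0.13 each), and Dkk2 without any 1 of the 4 libraries (0.053 to 0.30). Fzd1 lost its call without uterus replicate 1 (0.059), Wnt5a without uterus replicate 2 (0.11), and Notum without oviduct replicate 1 (0.078) or either uterine library (0.091 and 0.11).

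For the BMP and TGF-beta list, 8 of 27 tested genes were called (5.43% over all genes), 3 toward the oviduct and 5 toward the uterus. Amhr2, the receptor of anti-Müllerian hormone, stood at 87.8 and 70.7 CPM in oviduct members against 25.8 and 35.3 CPM, a log2 fold change of 1.42 ± 0.21. In stroma Amhr2 lay the other way, at 18.8 and 17.7 CPM in the oviduct and 45.3 and 41.4 CPM in the uterus. Tgfbi, a matrix protein induced by TGF-beta, stood at 238 and 250 CPM against 90.7 and 121 CPM. Toward the uterus lay the BMP ligand Bmp2, its modulator Bmper and the BMP target genes Id2 and Id3. Bmper was not called with DESeq2 (-1.15, adjusted p = 0.068). In edgeR its call was lost without the filter on low counts (-1.11, adjusted p = 0.10) and with cells thinned to 3000 UMIs (-1.09, 0.40). Id2 stood at 368 and 381 CPM in uterine members against 126 and 142 CPM, and Id3 at 1445 and 1456 CPM against 734 and 703 CPM. In the FGF list 3 of 13 tested genes were called (5.43% over all genes). Fgf10, 1 of the 3, passed the filter on low counts through the oviduct libraries alone. Fgf2 stood at 112 and 147 CPM in the uterus against 30.2 and 32.1 CPM in the oviduct, and the receptor gene Fgfr2 was higher in the uterus too. Fgf10 had 19 and 27 UMIs in oviduct members and 0 in the uterus, at least 2.69-fold higher, and lost its call without either uterine library (edgeR adjusted p = 0.16 and 0.093). Fgfr2 and Fgf2 share exon sequence with neighbouring gene models.

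The surface and matrix lists showed a few large differences. Among 21 junction and polarity genes tested (5.43% called over all genes), Dsp (desmoplakin), Ocln (occludin), Cldn10 and Cldn15 passed toward the oviduct and Cdh3 (P-cadherin) toward the uterus. With DESeq2 Cdh3 and Cldn15 were not called (adjusted p = 0.14 and 0.073). Cldn10 stood at 110 and 115 CPM against 43.3 and 29.6 CPM, and Dsp at 32.2 and 30.1 CPM against 8.32 and 7.63 CPM. Of 19 basement membrane genes, Col18a1, the collagen from which endostatin is cut, was higher in the oviduct at 550 and 529 CPM against 182 and 204 CPM. Lama2 was higher there too, and Col4a4 in the uterus. With each cell thinned to 3000 UMIs, Lama2 was at 0.74 in place of 2.10 and Col4a4 at -1.62 in place of -1.18. Neither was then called (edgeR adjusted p = 0.77 and 0.10). Aqp1, a water channel of mesothelium, stood at 23.6 and 23.1 CPM against 4.16 and 1.91 CPM, with a log2 fold change of 2.93 that rose to 3.63 without uterus replicate 1. Sdc4 completed the coat list, 2 of 12 tested. Without uterus replicate 2 the calls of Cdh3 and Cldn15 were lost (edgeR adjusted p = 0.13 and 0.082), and that of Sdc4 was lost without either uterine library (0.072 and 0.088) and without oviduct replicate 2 (0.073).

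The remaining lists are read against the same 5.43% over all genes. With DESeq2, C1s1, Msx2, Nr4a1, Atf3, Hspa1b and Pgr were not called (adjusted p = 0.14, 0.17, 0.93, 0.69, 0.17 and 0.059). Among immune signals, 4 of 19 tested genes passed, all higher in the uterus, among them C3, C1s1 and Serping1, the C1 inhibitor. C1s1 lost its call without uterus replicate 2 (edgeR adjusted p = 0.19), and Serping1 without either uterine library (0.18 and 0.17). The median of that list lay at 0.20, on the oviduct side. In the regional transcription factor list 8 of 26 were called, 4 in each direction. Some of the 8, such as Pax8, Msx2 and Tbx18, passed the filter on low counts through 1 organ alone, so this count is a description. Nr2f1, also called, stood at 27.9 and 34.3 CPM in the oviduct against 0.83 and 3.82 CPM in the uterus. The log2 fold change of Nr2f1 was 3.82, and 3.05 and 5.23 without uterus replicates 1 and 2. Of 12 genes linked to epithelial-mesenchymal transition 1, Fn1 (fibronectin), was called, at 305 and 237 CPM in the uterus against 127 and 113 CPM. For the hedgehog list 0 of 5 tested genes passed in edgeR, and for the NOTCH list 1 of 8, Hes1, which missed the threshold without uterus replicate 2 (0.063). Of 13 immediate early and stress genes 4 passed. Nr4a1 varied between libraries of 1 organ, at 248 and 517 CPM in the oviduct and 94.9 and 243 CPM in the uterus. Its log2 fold change of 1.22 ± 0.33 ranged from 0.62 to 2.06 when 1 library was left out, and its call was lost without uterus replicate 1 (edgeR adjusted p = 0.051). Of 4 steroid receptor genes tested Pgr, the progesterone receptor, passed, on 14 oviduct and 17 uterine UMIs. Pgr passed the filter on low counts through the uterine libraries alone. Its call was lost without oviduct replicate 1 (0.22), oviduct replicate 2 (0.35) or uterus replicate 1 (0.36). All 3 erythroid genes tested were higher in oviduct members, but without members of over 0.1% haemoglobin UMIs Hbb-bs and Hba-a1 were at -0.51 and -0.11 (edgeR adjusted p = 0.47 and 0.93).

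Of 14 S-phase genes 0 and of 15 G2/M genes 1, Cenpf, passed in edgeR, a share near the 5.43% over all genes. With DESeq2 Cenpf was not called (adjusted p = 0.20). Cenpf lay toward the oviduct and lost its call without uterus replicate 1 (edgeR adjusted p = 0.10) or uterus replicate 2 (0.091). Top2a stood at 171 and 159 CPM in oviduct members and 191 and 158 CPM in uterine members, and Mki67 at 132 and 110 CPM against 133 and 117 CPM. With each cell thinned to 3000 UMIs, 55 of 310 (17.7%, exact interval 13.7 to 22.5%) and 65 of 339 (19.2%, 15.1 to 23.8%) oviduct members had a Top2a or Mki67 UMI, with 10 and 18 shallower members left out. In the uterus 7 of 57 (12.3%, 5.08 to 23.7%) and 10 of 48 (20.8%, 10.5 to 35.0%) did, with 0 left out. The difference was 1.90 percentage points, with an exact permutation p of 1, and it turned to -2.38 without uterus replicate 1. Without thinning, oviduct members stood at 33.8% and 37.3% and uterine members at 26.3% and 35.4%. Oviduct stroma stood at 20.02% and 19.4% at the fixed depth and uterine stroma at 21.3% and 22.8%, a difference of -2.35 percentage points.

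Organ differences of mesothelium were then set against those of stroma by fitting the 8 sums together, each library having its own term. The difference between the 2 classes was called for 2328 of 14979 genes (15.5%) in edgeR, 1198 positive (8.0%) and 1130 negative (7.54%). With DESeq2 it was called for 1110, 38.6% of them positive in place of 51.5%. After subtraction of the free RNA bound, which removes up to 46.2% of a stromal sum, 312 were called, 309 of them among the 2328, and 31.1% were positive. In stroma alone 5949 of 14632 genes (40.7%) were called between the organs. The stromal sums rest on 1580 to 2731 barcodes a library, so fewer calls in mesothelium do not show fewer differences.

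Among the 11779 genes tested in both classes, 625 were called in mesothelium, 4920 in stroma and 455 in both. Of the 455, 322 (70.8%) had the same direction and 133 the opposite one. Agreement in direction over all 11779 genes was not counted, so 70.8% has no background share beside it. Both classes come from the same libraries, so this tally is a description. The genes that follow were chosen for a class difference or for opposite directions. Rspo3 was higher in uterine than in oviduct mesothelium, while stroma held 138 and 128 CPM in the oviduct and 60.8 and 61.4 CPM in the uterus, a class difference of -3.04 ± 0.12 (edgeR adjusted p = 2.7e-19). Adamts5, a proteoglycan-cleaving protease, stood at 73.3 and 84.5 CPM in oviduct and 116 and 136 CPM in uterine mesothelium, but at 127 and 129 CPM in oviduct and 20.6 and 16.9 CPM in uterine stroma. Its mesothelial call was lost without uterus replicate 2 (edgeR adjusted p = 0.15). Ntm (neurotrimin), a neural adhesion molecule, stood at 62.5 and 54.7 CPM in oviduct and 15.8 and 16.2 CPM in uterine mesothelium, and at 12.7 and 13.3 CPM in oviduct and 68.1 and 62.8 CPM in uterine stroma. Map2, a microtubule protein, and Tmem255a, a membrane protein, followed the pattern of Ntm, with class differences of 2.86 ± 0.24 and 2.72 ± 0.20. Map2 lost its mesothelial call without uterus replicate 1 (0.12). Sema3d and Ltbp2 stood higher in the uterus in mesothelium, with class differences of -2.77 ± 0.16 and -3.20 ± 0.23. For Tmem158 stroma showed 34.4 to 37.9 CPM in all 4 libraries, and the class difference was 3.06 ± 0.24.

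The members were not uniform. With each member thinned to 3000 UMIs, the variance over mean of 3925 genes had a median of 1.06 in both libraries, close to the value of 1 that counting alone gives. In both libraries 86 genes exceeded 2. The 15 highest in the lower library held Gm42418 and AY036118, which overlap ribosomal RNA, mitochondrial genes, Malat1, Crip1, Lgals1, the haemoglobin gene Hbb-bs, the immediate early gene Fos, the cycling genes Hist1h1b and Hmgb2, and Acta2, the smooth muscle actin. Leiden clustering gave 7 clusters, which are numbered and not named, and all genes of these cells entered the clustering, so what follows is a description.

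Cluster 4, with 57 and 61 members, held the cycling cells. Top2a stood there at 508 and 526 CPM, against 13.2 and 16.4 CPM in the other members, and its medians of 31097 and 21906 UMIs were the highest. In cluster 1, with 36 and 92 members, Nppc stood at 460 and 334 CPM against 47.5 and 49.5 CPM in the others, and Vcan (versican) at 508 and 242 CPM against 55.2 and 48.2 CPM. The immediate early gene Nr4a2 and Ins2 were also led by that cluster, which held 11.3% of the members in oviduct replicate 1 and 25.8% in replicate 2. Cluster 2, with 82 and 42 members, was led by Gm42418 and AY036118. Cluster 5, with 42 and 26 members, had Acta2 at 378 and 1055 CPM against 107 and 109 CPM, with the matrix gene Mfap4 and with Hoxc10 at 74.7 and 92.4 CPM against 28.9 and 24.2 CPM.

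Mt3 was highest in cluster 6 and Pax8 in cluster 3, and clusters 2 and 4 held both above 11 CPM. Clusters 5 and 7 held less of both, at 2.25 to 8.05 CPM. In cluster 6, with 13 and 46 members, Mt3 stood at 205 and 116 CPM against 14.6 and 14.0 CPM in the others, and Pax8 had 0 UMIs. The same cluster held the most Lgals7, at 1857 and 1821 CPM against 476 and 455 CPM, and C3 at 114 and 238 CPM against 25.8 and 29.6 CPM. Its 6 rule markers summed to 6295 and 6145 CPM, above every other cluster. In cluster 3, with 62 and 60 members, Pax8 stood at 29.2 and 24.3 CPM and Mt3 at 0.73 and 3.16 CPM. Cluster 2 had Mt3 at 41.9 and 22.5 CPM and Pax8 at 15.5 and 11.3 CPM, and cluster 4 had Mt3 at 22.9 and 35.4 CPM and Pax8 at 13.4 and 15.99 CPM. Prph (peripherin), an intermediate filament protein, led cluster 3 at 133 and 112 CPM against 25.045 and 44.2 CPM, with the ion transport regulator Fxyd3 at 513 and 434 CPM against 243 and 202 CPM and the collagen Col14a1 at 219 and 321 CPM against 98.8 and 94.5 CPM. Fxyd3 has an antisense partner that overlaps its exons.

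**Figure D5:**
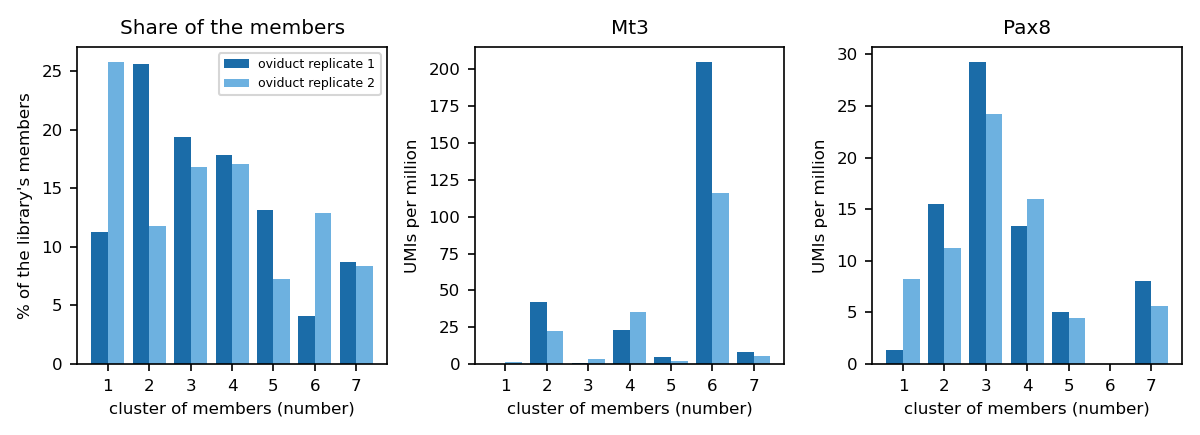
The 7 clusters of oviduct members: share of each library's members (left) and levels of Mt3 (middle) and Pax8 (right) as CPM of the cluster, with 1 bar per library. Mt3 is highest in cluster 6, where Pax8 is at 0, and Pax8 is highest in cluster 3.

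Cluster 7 went against its label. Its 28 and 30 members were shallow, with medians of 4476.5 and 5228.5 UMIs, and carried Hbb-bs at 4704 and 2057 CPM. The 20 mesothelial genes outside the rule summed to 1023 and 1183 CPM there, against 3262 CPM or more in every other cluster, Muc16 stood at 0 and 11.3 CPM and Wt1 at 80.5 and 130 CPM. Acta2 stood at 1434 and 1161 CPM. Of its members, 27 of 28 and 29 of 30 had over 0.1% haemoglobin UMIs. Outside the cluster 1 oviduct member in each library reached that level, and 0 uterine members did. When members above it were left out, an alternative chosen after this cluster was seen, 658 genes were called between the organs, 632 of them among the 648, and apart from the haemoglobin genes every named or listed gene called above kept its call.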

How the data were processed

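Single-cell RNA of 2 oviduct and 2 uterus libraries of neonatal mice was measured. The authors deposited gene-by-barcode UMI counts, raw and not normalized, written by Cell Ranger 6.0.1 for called and 4 for all barcodes, per the file headers. Cell Ranger, Seurat 4.2.3 and mm10 are named in the submitters' processing notes, whereas no source used here gives the annotation or the use of intronic reads. The replicate numbers come from the labels.

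Members and gene lists were chosen with earlier results of these data known. Counts were summed over the members of each library and compared in R 4.3.3 with edgeR 4.0.16 (normalised by TMM, filterByExpr, quasi-likelihood test, 2-sided, Benjamini-Hochberg), oviduct minus uterus, with 4 libraries in the fit. The SE of a log2 fold change was derived from the test, as its absolute value over the square root of the quasi-likelihood F statistic. CPM is per 1000000 UMIs of a sum. Shares were compared by exact permutation over libraries (6 splits), with exact 95% binomial intervals, which cover counting error only. A limit of 3 UMIs over both uterine sums was used where a gene was at 0. The free RNA bound took all haemoglobin UMIs of a class as free RNA with the profile of barcodes of up to 100 UMIs. Mesothelium against other cells and the clusters (scanpy 1.11.5, Leiden, 1500 variable genes, 15 components, resolution 0.5) carry no test. Scrublet's own threshold marked 0 to 2 barcodes a library, so the highest scores were marked at 0.8% per 1000 barcodes, kept, and removed in an alternative.

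Named genes were the 12 largest called changes per direction with a mean of at least 20 CPM, no overlap and a free RNA bound of at most 25%, the 3 largest called per direction in each pathway list (5 for Hox), the 6 largest class differences per direction, and fixed markers. Further genes in the text are called members of those lists, leading genes, or uncalled list members such as Hoxc6, Hoxa7, Hoxa9 and Hoxd8. All of these were chosen after their values were seen. On data simulated for the organ comparison (11940 genes) 55.7% of 2-fold and 90.2% of 4-fold changes were recovered and 6.65% of calls were false; for the class difference (14979 genes) the shares were 45.8%, 70.4% and 5.36%. Alternatives changed the test (DESeq2 1.42.0), normalisation, filters, marker rule, exclusion, doublets, free RNA, depth, block and libraries. Barcode depth limits rare genes: medians were 12842 to 20795.5 UMIs a member. Some listed genes are counted but not reported by name here.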

Additional observations from a re-analysis of the deposited data

Results flagged for a closer look

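The organ difference was tested against that of stroma in edgeR, and 2328 genes differed between the classes. Positive values mean a larger difference toward the oviduct in mesothelium than in stroma. Among the named genes these were, on the log2 scale, Ntm at 4.35, Adgrf5 at 3.34, Tmem158 at 3.06, Map2 at 2.86, Amhr2 at 2.78, Tmem255a at 2.72, Ptgds at 2.71, Nppc at 2.11, Cmbl at 2.10, Nrgn at 2.07, Bace2 at 1.44, Gstm1 at 1.37 and Mt2 at 0.77. Hoxd11 at 1.58, Hoxd10 at 1.14 and Hoxa10 at 1.11 were positive because they lay less far toward the uterus in mesothelium. Mt3 at 11.99 and Pax8 at 8.65 are fitted values against uterine sums of 0 and are no bound on a fold.

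Negative values were found for Hoxc8 at -4.28, C3 at -3.65, Podn at -3.38, Adamts5 at -3.30, Ltbp2 at -3.20, Krt14 at -3.11, Rspo3 at -3.04, Hoxc9 at -2.81, Hoxc4 at -2.79, Sema3d at -2.77, Car3 at -2.18, Alcam at -1.94, Lbh at -1.81 and Tcf21 at -1.03. The difference was no longer called for Hoxd11 and Hoxd10 without oviduct replicate 1 (0.63 and 0.26, edgeR adjusted p = 0.067 and 0.83), for Ptgds without uterus replicate 2 (1.83, 0.097), for Krt14 without oviduct replicate 2 (-2.71, 0.051) or uterus replicate 1 (-2.61, 0.062), and for Bace2 without oviduct replicate 2 (1.28, 0.068) or uterus replicate 2 (0.93, 0.27). Car3 was lost without oviduct replicate 1 (-2.94, 0.052), oviduct replicate 2 (-1.83, 0.16) or uterus replicate 1 (-1.79, 0.13). Mt2 was lost without oviduct replicate 1 (0.65, 0.093) or uterus replicate 1 (0.71, 0.081), and Pax8 without oviduct replicate 1, uterus replicate 1 or uterus replicate 2 (edgeR adjusted p = 0.11, 0.14 and 0.14). After subtraction of the free RNA bound the differences of Ptgds, Nppc, Gstm1, Cmbl, Nrgn, Bace2, Mt2, Mt3, Pax8, Hoxd11, Hoxd10, Hoxa10, Car3, Tcf21, Krt14, Podn and C3 were no longer called (edgeR adjusted p = 0.051 to 1). Of these, Nppc then stood at 2.74 ± 0.69, Gstm1 at 1.68 ± 0.28, Cmbl at 3.30 ± 1.32, Nrgn at 4.42 ± 1.70, Bace2 at 3.32 ± 0.97, Mt2 at 1.91 ± 1.52, Car3 at -2.59 ± 0.71 and Tcf21 at -1.28 ± 0.34 (SE), each no smaller than before. Hoxd11 stood at 1.41 ± 0.60, Hoxd10 at 0.95 ± 0.47, Hoxa10 at 0.95 ± 0.28 and Podn at -2.94 ± 0.83. With DESeq2 the differences of Bace2, Hoxd11, Hoxd10, Pax8 and Mt2 were not called (adjusted p = 0.075 to 0.36). Groups of 2 libraries are too small for a test of single outlying samples.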

How the results depend on the processing

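Of 81 named genes called between the organs, 37 kept the call in every alternative that tested them, 44 lost it in at least 1 and 0 reversed. Hoxa11, Pax8, Aqp1 and Fgfr2, among the 37, had a test in 16 alternatives, where most genes had 17. Thinning to 3000 UMIs cost 35 calls, no filter on low counts 26 and DESeq2 21. The 648 calls became 329 with DESeq2, 294 without the filter on low counts and 157 after thinning, where fewer genes were tested, and ranged from 569 to 863 without 1 library. The 2328 class differences became 1110 with DESeq2, 312 after subtraction of the free RNA bound, and 1457 to 1699 without 1 library, 1457 being without uterus replicate 1; with RLE size factors 45.5% were positive. The causes were not tested. The class difference of C3 turned from -3.65 to 2.60 ± 2.01 (edgeR adjusted p = 0.55) after subtraction. The difference in cycling share, 1.90 percentage points, turned to -1.90 without probable doublets and to -4.56 under the stricter marker rule, and ranged from -2.38 to 6.18 without 1 library. The difference in mesothelial share ranged from 3.39 to 4.88 without 1 library and from 3.51 to 6.71 otherwise. Stromal calls ranged from 4848 to 5353 without 1 library.

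With the replicate number as a block 961 genes were called in mesothelium, 647 of the 648 among them, and 6012 in stroma; no call of a gene named by the rule changed. Deviations of libraries with the same number correlated at 0.072 across genes in mesothelium and 0.18 in stroma, and the labels do not say which numbers share a pool. The 105 uterine members limit what can be seen of rare genes.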
